A study of Mus musculus with 11 samples.

Results

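H3K27ac peak lists of mouse stomach glands with active Notch and both Arid1a alleles floxed were compared with lists of glands with active Notch alone. The comparison took 4 of the 11 ChIP-seq libraries of the series, 2 of each genotype. Control glands (NICD) had the genotype Atp4bCre; Rosa26NICD, and the second group (2-allele) had Atp4bCre; Rosa26NICD; Arid1aflox/flox, so both groups carried the Cre and the active part of Notch. Atp4bCre acts through a gene of acid-secreting parietal cells, while the glands hold many other cell types. Fixed epithelial pellets were pooled for each immunoprecipitation, so whether replicates came from separate animals is not known, and the sources used here state no age for the mice. Wild-type glands and glands with 1 floxed allele (Atp4bCre; Rosa26NICD; Arid1aflox/+), with 2 H3K27ac libraries each, served as further references, as did 3 libraries labelled H3K4me3.

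Acetylation of lysine 27 on histone H3 marks active promoters and enhancers, and it is laid down mainly by the acetyltransferases p300 and CBP. ARID1A is a DNA-binding subunit of the BAF form of the SWI/SNF complex, which slides and evicts nucleosomes with energy from ATP, and it is often lost in gastric cancer. In other tissues BAF is known for keeping enhancers open, more than promoters. Notch, once cut by gamma-secretase, sends its intracellular part to the nucleus, where it joins RBPJ and Mastermind to switch on genes of the Hes and Hey families.

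On chromosomes 1 to 19 and X, the NICD lists held 41380 and 25423 peaks and the 2-allele lists 15353 and 14364 regions. Merging them wherever they shared at least 1 bp gave 42802 regions. Of these, 7079 were called in both NICD lists and in neither 2-allele list, which is 16.5% of all merged regions; they are named missing regions here. The opposite pattern, called in both 2-allele lists and in neither NICD list, was held by 41 regions, or 0.0958%. Another 10602 regions were called in all 4 lists. The 2-allele lists were thus shorter and lay almost wholly inside the NICD lists: 97.1% and 97.5% of their regions were in NICD replicate 1, and 90.4% and 90.8% in NICD replicate 2.

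The 2 groups of lists were not made alike, and this touches every count here. NICD peaks carry scores and headers, with 13.91 M and 7.96 M tags after duplicate removal and redundant rates of 0.19 and 0.52. The 2-allele lists hold positions alone, with no score or depth, and their widest regions were 1773 and 1758 bp against 3875 and 3832 bp in NICD. Genotype and the way the lists were made therefore cannot be told apart, and a region absent from a list may still carry the mark below the calling threshold. The lists within a group also differed: NICD replicate 1 found 92.3% of the regions of replicate 2, but replicate 2 found 52.2% of those of replicate 1. The 2-allele lists shared 78.2% and 83.4% of their regions. Peaks per library were 14859 ± 699 with 2 floxed alleles and 33402 ± 11283 in NICD (SD, n = 2 each), a two-sided exact permutation p of 0.333, the smallest that 2 libraries against 2 allow.

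Marker genes were read as a check of the tissue. All 5 epithelial markers (Cdh1, Epcam, Krt8, Krt18 and Krt19) had a peak within 1 kb of a gene end in both NICD lists, and 5 and 4 had one in the 2-allele lists. None of the 4 defining parietal markers (Atp4a, Atp4b, Kcne2 and Hrh2) was called in any of the 4 lists, against 2 and 2 in wild type. Of the wider list of 19 parietal genes, each of the 4 lists called 6. None of the 4 endothelial markers was called in the 4 lists. The NICD lists called 1 and 2 of 5 blood cell markers, and the 2-allele lists 2 and 0. Of 6 fibroblast and muscle markers the NICD lists called 2 and 1 and the 2-allele lists none, and of 3 chief cell markers the NICD lists called 1 each and the 2-allele lists none. The part of these cell types in the results was not tested. Arid1a itself and Notch1 had a call at a gene end throughout the 4 lists, which does not test whether the floxed part of Arid1a was removed. In bulk glands, fewer cells of a type and less acetylation per cell cannot be told apart.

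These 6 promoters are examples of the groups in sequence and do not stand for their typical members. They were chosen after their values were seen: Pdx1 (a transcription factor of the antral stomach and pancreas), Muc1 (a membrane mucin) and Gpx2 (an epithelial glutathione peroxidase) were missing at the start; Smarcc1 (a core subunit of BAF) and Mcl1 (an inhibitor of apoptosis) were called in all 4 lists; Ccne1 (cyclin E1, which drives entry into S phase) was called in both 2-allele lists and in neither NICD list. The 250 bases before each start are given 5′ to 3′ on the gene's strand, from RefSeq GRCm38.p6, with every CG dinucleotide in capitals. In order, they lie at chr5:147269847-147270096 (plus strand), chr3:89228806-89229055 (plus), chr12:76795555-76795804 (minus), chr9:110131774-110132023 (plus), chr3:95658471-95658720 (plus) and chr7:38107491-38107740 (minus).
Pdx1: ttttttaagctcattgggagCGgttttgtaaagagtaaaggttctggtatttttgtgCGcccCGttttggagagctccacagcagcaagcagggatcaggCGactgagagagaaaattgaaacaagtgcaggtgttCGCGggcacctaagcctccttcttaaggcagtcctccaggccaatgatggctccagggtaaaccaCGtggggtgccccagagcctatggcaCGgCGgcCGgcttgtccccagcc
Muc1: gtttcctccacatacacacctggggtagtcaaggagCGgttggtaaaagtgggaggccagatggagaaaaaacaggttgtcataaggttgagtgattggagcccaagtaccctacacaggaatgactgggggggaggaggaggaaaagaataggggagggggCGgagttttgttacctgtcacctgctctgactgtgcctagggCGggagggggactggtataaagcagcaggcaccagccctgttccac
Gpx2: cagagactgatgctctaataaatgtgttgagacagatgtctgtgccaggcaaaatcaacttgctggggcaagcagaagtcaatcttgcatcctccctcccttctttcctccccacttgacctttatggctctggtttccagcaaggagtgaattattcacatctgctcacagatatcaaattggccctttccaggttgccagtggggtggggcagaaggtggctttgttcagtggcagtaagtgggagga
Smarcc1: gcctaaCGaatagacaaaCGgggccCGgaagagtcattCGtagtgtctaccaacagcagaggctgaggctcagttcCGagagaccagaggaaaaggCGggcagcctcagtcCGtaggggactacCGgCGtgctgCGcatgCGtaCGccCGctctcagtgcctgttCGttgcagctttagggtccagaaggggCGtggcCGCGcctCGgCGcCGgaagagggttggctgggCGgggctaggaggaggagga
Mcl1: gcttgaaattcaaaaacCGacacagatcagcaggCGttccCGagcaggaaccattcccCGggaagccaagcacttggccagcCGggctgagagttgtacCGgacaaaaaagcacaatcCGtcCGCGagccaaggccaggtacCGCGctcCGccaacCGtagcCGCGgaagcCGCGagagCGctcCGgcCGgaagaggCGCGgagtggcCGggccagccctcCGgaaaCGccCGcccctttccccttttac
Ccne1: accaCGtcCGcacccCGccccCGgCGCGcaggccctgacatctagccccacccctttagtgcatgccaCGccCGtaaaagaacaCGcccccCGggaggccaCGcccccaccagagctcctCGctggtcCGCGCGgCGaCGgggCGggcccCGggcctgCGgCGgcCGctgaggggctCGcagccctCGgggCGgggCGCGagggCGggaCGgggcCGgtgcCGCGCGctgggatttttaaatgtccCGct
The printed bases held 10 CG in Pdx1, 3 in Muc1 and 0 in Gpx2, against 21 in Smarcc1, 26 in Mcl1 and 34 in Ccne1. The ETS letters CCGGAAG, on either strand, had 2 matches in Smarcc1, the first starting 226 bases before the start. Mcl1 had 1 match, starting 63 bases before the start, and the other 4 promoters had none.

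The same contrast, less marked, was present in the whole set of promoters. Over 21045 RefSeq promoters (250 bases before to 50 after a start, for 17274 of 21631 protein-coding genes, 79.9%), 805 had a start within 1 kb of a peak in both NICD lists and of no 2-allele region, and 8451 were called in all 4 lists. Median GC content was 58.7% in the missing promoters and 62.7% in those called in all 4. The median ratio of observed to expected CpG was 0.599 and 0.818, with 0.574 over all promoters. The printed examples lay further apart than these medians. Pdx1, Muc1 and Gpx2 had ratios of 0.485, 0.267 and 0, and Smarcc1 and Mcl1 had 1.05 and 1.02. CCGGAAG, the core of many ETS factor sites, was present in 8.32% of missing promoters, 22.7% of those in all 4 lists and 11.7% of all promoters. GGGCGGG, bound by SP and KLF factors, was present in 41.1%, 51.9% and 34.2% in that order. Missing promoters thus held fewer CpG and fewer ETS and SP/KLF letters than those in all 4 lists.

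Promoters called in all 4 lists also had stronger NICD peaks, so promoters were compared within bands of NICD rank. For each region called in both NICD lists, the percentile of its −log10 p within each list was averaged and cut into 10 classes, 1 the weakest and 10 the strongest. In classes 1 to 3 the ETS letters were in 7.16% of 433 missing promoters and 21.2% of 217 in all 4 lists. In classes 4 to 6 they were in 9.83% of 295 and 22.0% of 1533, and in classes 7 to 10 in 9.52% of 42 and 23.0% of 6696. The lower ETS share in missing promoters was present in each band of rank. Rank is matched only roughly within a band. At gene ends, classes 1, 2 and 3 held 282, 297 and 269 missing regions, against 17, 85 and 160 in all 4 lists. Classes 7 and 10 held 32 and 1 missing regions, against 1188 and 1712. The bands also hold fewer promoters than the 805 and 8451 of the whole set. The SP/KLF letters were in 40.2% of missing promoters and 49.8% of those in all 4 lists in classes 1 to 3. In classes 4 to 6 these shares were close, at 45.1% and 46.6%, and in classes 7 to 10 they were 31.0% and 53.2%. Over all ranks the letters of AP-1, GATA and RBPJ were more frequent in missing promoters: the AP-1 letters TGANTCA were in 6.83% of missing promoters and 4.06% of those in all 4 lists (7.04% of all promoters), the GATA letters AGATAA in 8.45% and 4.82% (9.68%), and the RBPJ letters TGGGAA in 26.5% and 21.4% (24.2%). In classes 1 to 3 the RBPJ letters were in 27.02% of missing promoters and 30.9% of those in all 4 lists, so that order turned among weak promoters. In classes 7 to 10, with 42 missing promoters, it turned for the AP-1 letters (2.38% and 4.02%) and the GATA letters (2.38% and 4.69%). The FOX letters TGTTTAC were in 2.11% and 2.26% over all ranks, and the GRHL letters AACCGGTT in 0.248% and 0.284%. A match is a description of the letters and not a bound site, both strands were searched, and SP/KLF and ETS letters can lie in the same CpG-rich stretch.

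**Figure D1:**
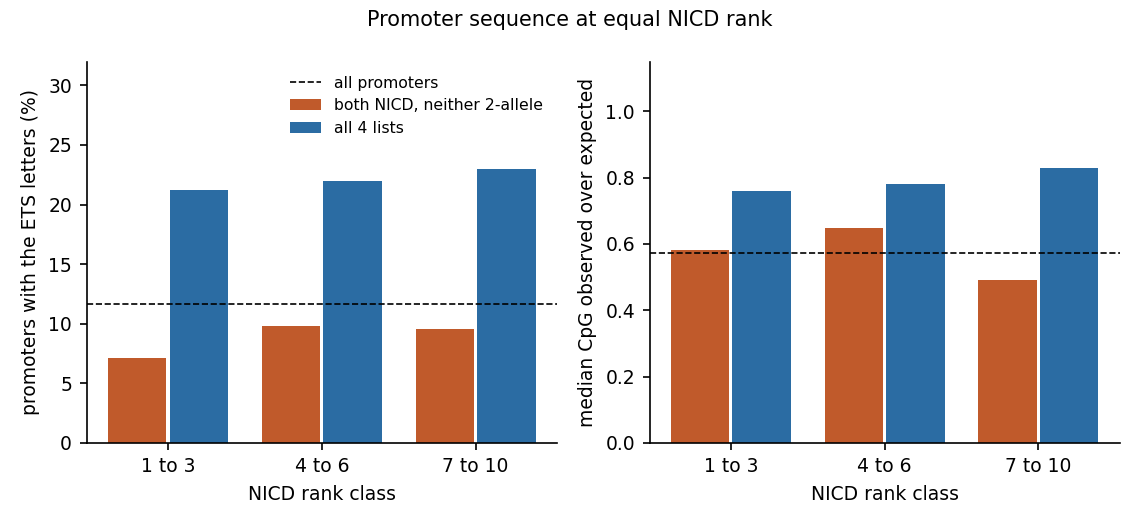
Share of promoters holding the ETS letters on either strand (left, percent) and median CpG observed over expected (right), for promoters called in both NICD and neither 2-allele list (orange) and in all 4 lists (blue), in 3 bands of NICD rank class. The dashed line is the value over all 21045 promoters. In each band the orange bar is below the blue one, for ETS 7.16% against 21.2% in classes 1 to 3. Rank is matched only roughly within a band.

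Most missing regions lay away from gene ends, though often inside genes. Of the 7079, 5694 (80.4%) had no end of a protein-coding gene within 1 kb and are called distal, and 1385 lay at a gene end. Of the distal ones 50.8% were inside a gene body, and 1696 (24.0% of all missing regions) were 1 to 10 kb from a gene end. Both ends of each gene were used because the gene table gives no strand. Among the 21108 regions called in both NICD lists, 33.5% were missing: 12.8% of the 10810 at gene ends and 55.3% of the 10298 distal ones. The share missing grew with distance, from 47.2% at 1 to 10 kb and 57.8% at 10 to 50 kb to 62.6% at 50 to 100 kb and 63.6% beyond 100 kb. Distal regions made up 33.8% and 32.5% of the 2-allele lists and 64.9% and 50.8% of the NICD lists (exact permutation p = 0.333, n = 2 per group, adjusted p = 0.333 over 6 comparisons).

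The share missing was far lower among regions of high NICD rank, and the cause of this was not tested. From class 1 to class 10 the share missing was 88.9%, 74.1%, 61.4%, 48.5%, 32.7%, 17.8%, 7.39%, 2.94%, 0.805% and 0.948%. Missing regions had a median −log10 p of 11.3 and 7.90 in the NICD lists, against 32.6 and 16.9 for regions in all 4 lists, and a median width of 452 bp against 817 bp. Strong NICD regions were therefore almost always called with 2 floxed alleles, and weak ones seldom. Scores are the authors' own and describe each list alone.

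At equal rank, distal regions were still called less often than gene-end regions. Averaged over the 10 classes, the share called differed between distal and gene-end regions by −20.5 points in 2-allele replicate 1 and by −19.05 points in replicate 2. The same measure was −11.6 and −6.50 points in the wild-type lists, and both 2-allele values lay below both of these (exact permutation p = 0.333, n = 2 per group, adjusted p = 0.333). All of these values share the same NICD regions. The 1-allele lists gave 1.33 and −5.53 points, and both 2-allele values lay below these too (exact permutation p = 0.333, n = 2 per group, adjusted p = 0.333). The 1-allele lists called so few gene-end regions that the measure could not go below −11.1 and −21.4 points there. The first of these limits is above both 2-allele values, so nothing is concluded from that comparison. Wild-type lists called about as many NICD regions, 63.5% and 61.4%, as the 2-allele lists, 60.1% and 56.6%; the 1-allele lists called 21.4% and 31.95%.

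**Figure D2:**
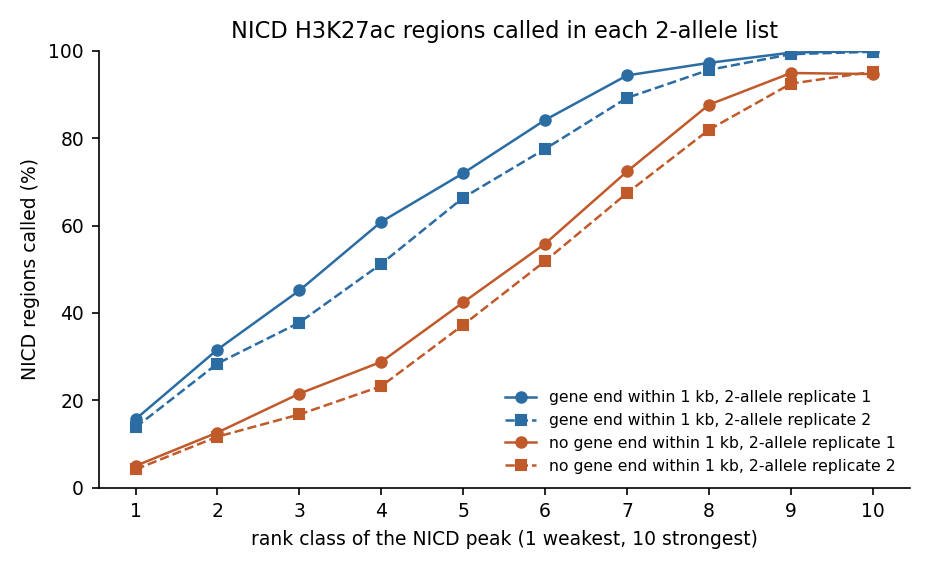
Percent of the regions called in both NICD lists that each 2-allele list also called (y axis), by rank class of the NICD peak (x axis, 1 weakest), for gene-end regions (blue) and distal regions (orange), with circles and solid lines for replicate 1 and squares and dashed lines for replicate 2. In each class both distal lines lie below both gene-end lines, and the lines are closest in classes 9 and 10.

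The difference widened with distance. In 2-allele replicate 1 it was −16.7 points at 1 to 10 kb, −21.2 at 10 to 50 kb, −23.9 at 50 to 100 kb and −26.1 beyond 100 kb. In replicate 2 the same distances gave −15.8, −19.5, −22.6 and −23.8 points. Wild type went the same way, from −9.21 and −4.22 points at 1 to 10 kb to −15.1 and −7.95 beyond 100 kb. Each of these values is weighted by the distal regions of its own distance class, so that the rank classes behind them differ. Distal regions inside a gene body were called slightly more often than those outside at equal rank, by 2.76 and 1.87 points in the 2-allele lists.

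**Figure D3:**
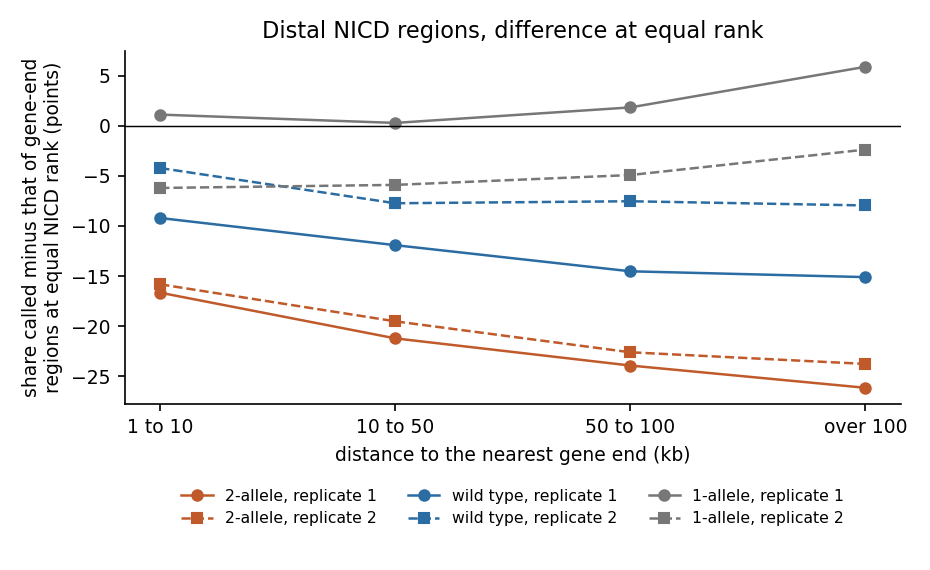
Share of distal NICD regions called minus the share of gene-end regions called at equal NICD rank (y axis, percentage points), by distance to the nearest gene end (x axis, kb), for each 2-allele (orange), wild-type (blue) and 1-allele (grey) library; the horizontal line is 0. The 2-allele libraries run from −16.7 and −15.8 points at 1 to 10 kb to −26.1 and −23.8 beyond 100 kb.

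Other lists described the distal missing regions further. Wild-type H3K27ac lists called 26.3% and 26.7% of them, against 83.1% and 81.4% of the distal regions in all 4 lists. The NICD H3K4me3 list called 48.6% and 89.7% in that order, and the wild-type H3K4me3 list 7.499% and 60.8%. At equal rank the wild-type H3K4me3 share was lower in missing than in retained distal regions in classes 1 to 9, from 3.39% against 36.8% in class 1 to 46.2% against 81.9% in class 9, and higher in class 10. Class 1 held 19 retained distal regions and class 9 held 13 missing ones, so these shares are coarse. H3K4me3 marks promoters, so the distal regions called in all 4 lists overlapped a promoter mark more often, although no outer gene end was near. Some distal regions can still lie at a transcription start. Axin2, Cdkn1a, Bcl2l1 and Egr2 had no call at their ends in the 4 lists, but all 4 called a listed start. Retained distal regions were also wider at equal rank, with medians of 599 against 386 bp in class 1 and 718 against 520 bp in class 5. The part of width in these overlaps was not tested. In the NICD H3K4me3 list, however, 58.3% of the peaks were themselves distal, against 27.7% in the wild-type one, with 1 library each. A minority of missing regions bordered a retained one: 1025 (14.5%) lay within 500 bp of a 2-allele region and 137 (1.94%) within 100 bp.

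The strongest missing distal regions were a case apart. All 10 with the highest NICD rank were called in each of the 9 scored lists, whatever the genotype or antibody, and were absent only from the 2-allele lists, which have no score. The first, at chr9:35305090-35305713, 29.1 kb from Rpusd4 (a mitochondrial RNA-modifying enzyme), had a −log10 p of 394.7 and 389.4 in the NICD lists and 26.0- and 26.1-fold enrichment. Others lay near Rab10, Chl1, Cr2, Csf2ra, 2210408I21Rik, Cdk5rap2 and Dpy19l2, and 2 lay over 1000 kb from Lrrc4c. In all, 76 missing regions were in all 9 scored lists, 73 of them distal; of the 1868 NICD regions in all 9, 1763 were also called in both 2-allele lists. Whether such regions were filtered out of the 2-allele lists was not tested. Without them 7003 missing regions remain, 80.3% distal.

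With those regions set aside, a choice made after the values were seen, the strongest missing distal regions lay near Brox, Crocc, Atp23, Wasf2, Hibadh, Pstpip1, Tex14, Plat, Pakap and Fndc10. The region inside Brox (chr1:183299141-183299606, 1.8 kb from its end) had a −log10 p of 37.6 and 30.3. The region 11.7 kb from Plat, which encodes tissue plasminogen activator (chr8:22744741-22746005), had 36.9 and 18.9 and was called in both wild-type and neither 1-allele list. The region 12.2 kb from Wasf2, an actin regulator (chr4:133117395-133118310), had 37.9 and 20.2. Most of these regions were called outside NICD as well: of the 10, 10 were in wild-type replicate 1 and 8 in replicate 2.

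At gene ends the strongest missing regions lay at Tmem107, 4921536K21Rik, Tmem8b, Synpo, Grk3, Rnf39, Il17rc, Ppp2r5c, Rasgrp1 and Alg6. Tmem107, a protein of the ciliary transition zone, had a region at chr11:69073122-69073510 with a −log10 p of 38.7 and 31.7 that was called in both wild-type and both 1-allele lists. Rasgrp1, an exchange factor for Ras, had 37.8 and 17.0 at chr2:117342263-117343297. Il17rc, a subunit of the interleukin-17 receptor, had 34.0 and 18.7 at chr6:113471478-113472104. Il17rc, Ppp2r5c and Alg6 kept another call at an end in both 2-allele lists, and 4921536K21Rik in 1 of them. All 10 regions were called in both wild-type lists, and 5 of them in at least 1 of the 1-allele lists.

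Of the 41 opposite regions, 1 stood high in both 2-allele lists. It lay 202.8 kb from Gata6, an endodermal transcription factor (chr18:11288459-11288929), at place 741 of 15362 in replicate 1 and 263 of 14373 in replicate 2, and it was also called in wild-type replicate 2 and both 1-allele lists. The other 9 highest had places from 4484 to 11906 and lay near Gm40369, Sfi1, Itgad, Rfx3, N6amt1, Pstpip2, Rab22a, Dhx8 and Rere. Place in the file was taken as an order of strength, which the lists themselves cannot show. With the replicate 1 list cut into 5 equal stretches, 99.7% of the first stretch was also in replicate 2, and 42.3% of the last. Of the 41, 32 were distal. An opposite region lay at an end of 10 genes (0.0462% of 21631): Btg3, Gm40369, Gp9, Irf2bp1, Kcnt2, Lrp2, Per2, Prickle4, Sipa1l1 and Tomm6. For 2 of them, Gm40369 and Lrp2 (megalin, an endocytic receptor), no NICD peak lay at either end.

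The genes with the most missing distal regions are described next, and whether such regions cluster was not tested. Of 245 genes with at least 5 distal NICD regions nearest to them within 100 kb, the median share missing was 60%, near the 55.3% of all distal NICD regions, while 9 had all missing and 5 had none. Vmp1, which acts in autophagy, had 8 of 8 missing, and a gene end called in all 4 lists. Foxq1, a forkhead factor that drives mucin production in surface pit cells, had 7 of 8 missing. Its 7 missing regions ran from 51.6 kb on one side to 7.0 kb on the other, with −log10 p of 10.9 to 20.6 in NICD replicate 1. The 1 retained region, 17.1 kb away, was the highest in NICD replicate 1, at 23.4, and stood at place 14880 and 12396 in the 2-allele lists. Tmprss2, a membrane serine protease, had 7 of 11 missing, and Abcc4, a transporter of cyclic nucleotides and drugs, 8 of 13. Ly86, Nsmce2, Arf6, Bcor, Crybg1 and Galntl6 complete the 10 genes with the most, at 6 or 7 each.

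Retained distal regions were densest near Gm40363, with 8 of 8 in all 4 lists, Kcnrg, with 5 of 5, and Rreb1, a zinc finger factor downstream of Ras, with 5 of 13. Nr3c1, the glucocorticoid receptor, had 4 of 5 in all 4 lists and the other in 1 of the 2-allele lists. Zbtb7c, C77080, Cracdl, Dlgap1, Hmgb1 and Pdia4 had 4 or 5 each. The median NICD percentile of the distal regions ran from 42.5 (Cracdl) to 95.1 (Gm40363) over the 10 genes with the most retained, and from 26.7 (Bcor) to 57.1 (Foxq1) over the 10 with the most missing, so the ranges overlapped.

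By gene, 1530 of 21631 protein-coding genes (7.07%) had a missing region within 1 kb of an end. For 795 of them neither 2-allele list called either end, for 155 one list did, and for 580 both did, so that the gene kept a peak beside the missing one. The 20 gene lists, with 481 entries, were read against these shares, with no test. In them 40 members had a missing region at an end, and 22 of these had no call in either 2-allele list. The NICD peaks of the 22 were modest, with −log10 p from 5.999 to 21.6, and 17 of the 22 were higher in NICD replicate 1. That order is general: over all regions in both NICD lists the median was 20.1 in replicate 1 and 11.3 in replicate 2.

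Surface pit cell genes had the largest share of these lists. Of 16 members, 7 (43.8%) had a missing region at an end, against 7.07% of all genes: Muc1, Psca, Vsig1, Gkn2, Foxq1, Gsta1 and Capn8. Pit cells line the stomach surface and secrete protective mucus. Members called at an end numbered 15 and 8 in NICD, 6 and 3 in the 2-allele lists and 8 and 11 in wild type. Muc1 had a −log10 p of 13.1 and 8.69 in the NICD lists, Psca (a surface antigen) 10.1 and 9.66, and Vsig1 (a junction protein of gastric epithelium) 13.5 and 8.08, and none of them was called in a 2-allele list. Gkn2 (gastrokine 2) and Capn8 (a gastric calpain) kept a call in 2-allele replicate 1, and Foxq1 and Gsta1 in both. Of 15 distal NICD regions within 50 kb of these genes, 11 were missing, 5 of them at Foxq1 (73.3%, against 52.98% of 7932 over all genes). With lists of equal length, described at the end, no pit cell gene was called at an end in both NICD and neither 2-allele list.

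Transcription factors of the stomach came next. Of 30 members, 6 (20.0%) had a missing region at an end, among them Pdx1, Elf3, Nkx6-3, Irx5 and Ehf. Pdx1 had a −log10 p of 12.8 and 9.65, Elf3 (an epithelial ETS factor) 13.7 and 7.18, Nkx6-3 (a homeobox factor of the antrum) 15.3 and 7.37, and Irx5 (an Iroquois homeobox factor) 13.2 and 5.999. These 4 had no call in either 2-allele list, whereas Ehf kept another region, called in all 4 lists. Around the list 25 of 48 distal regions were missing (52.1%), a share near that of all genes. Gata4, a GATA factor of the endoderm, had 3 of 4 missing, Grhl2, a grainyhead factor, 3 of 4, and Elf3 0 of 4.

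In the other gland lineages fewer members separated the groups, with no share above 13.3%, against 7.07% of all genes. These shares are over all members, while only a gene called in NICD can have a missing region. The NICD lists called 6 and 6 of 19 parietal, 5 and 4 of 15 chief and 14 and 9 of 18 neck and metaplasia genes. They called 2 and 2 of 16 endocrine, 14 and 8 of 16 isthmus and stem cell and 9 and 1 of 20 intestinal genes. Low shares therefore do not show that these lineages kept their peaks. Chief cells, which make pepsinogen, had 2 of 15 members missing at an end: Bhlha15 (Mist1, which builds the secretory apparatus) with a −log10 p of 10.8 and 11.9, and Clps (colipase) with 7.98 and 8.71. In the mucous neck and metaplasia list Gpx2 was missing, with 19.6 and 11.1, and all 7 distal regions within 50 kb of its members were missing, 4 of them at Mal2; these 7 were weak, with a median NICD percentile of 15.9 against 49.9 over all genes. No parietal member of 19 had a missing region at an end. Around parietal genes 8 of 11 distal regions were missing (72.7%, against 52.98% over all genes). Endocrine genes had 2 of 16 (Isl1 and Ddc, 12.5%), isthmus and stem cell genes 1 of 16 (Ascl2, 6.25%) and intestinal genes 1 of 20 (Vil1, 5.00%).

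**Figure D4:**
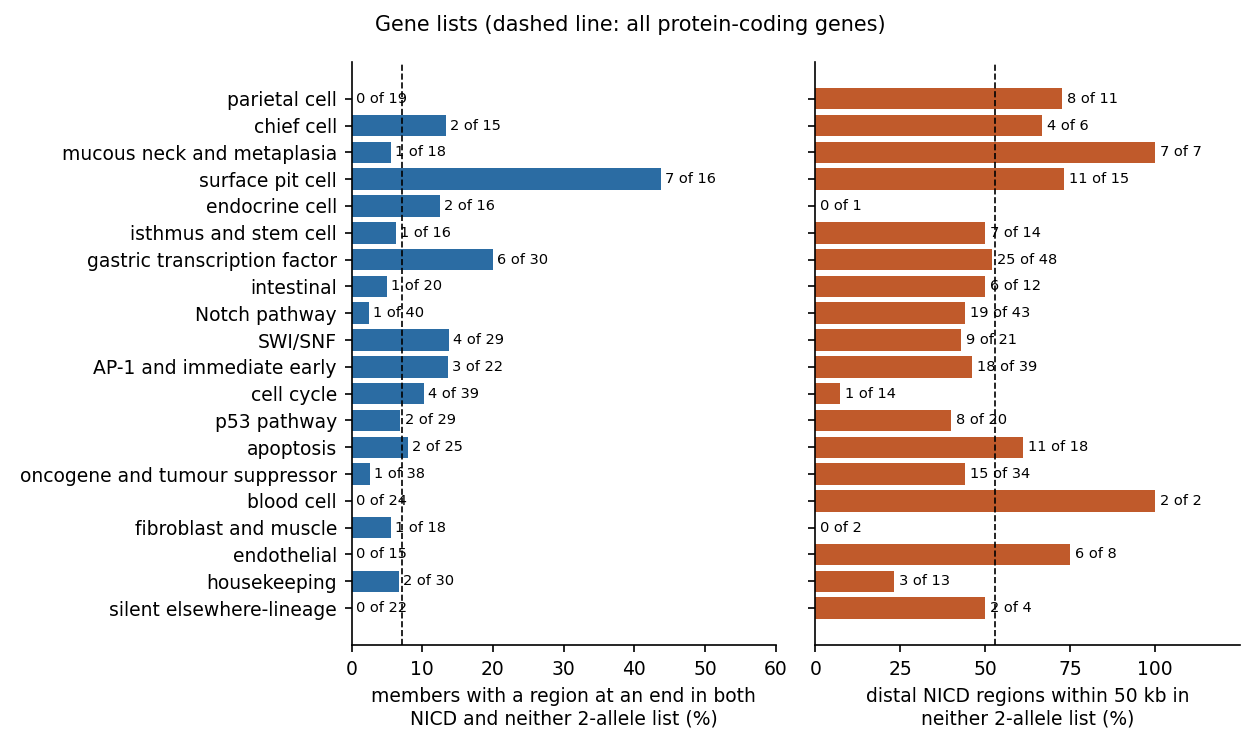
For 20 gene lists, the percent of members with a region at a gene end in both NICD and neither 2-allele list (left, blue) and the percent of distal NICD regions within 50 kb of members that were in neither 2-allele list (right, orange), with counts beside the bars. Dashed lines are all protein-coding genes, 7.07% and 52.98%. Surface pit cell genes stand at 7 of 16 on the left, where all members count, called in NICD or not.

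Notch pathway genes called in NICD were mostly retained at their ends, and so were genes at large. The NICD lists called 33 and 28 of 40 members and the 2-allele lists 25 and 23. Over all 21631 genes the NICD lists called 11600 and 10343 and the 2-allele lists 9314 and 9007. A missing region lay at an end of 1 member (2.50%, against 7.07% of all genes). That gene, Heyl, a hairy-related repressor, had a −log10 p of 10.1 and 9.21. Dll4, a Notch ligand also named after its values were seen, had separate peaks of 8.43 and 5.63 in the NICD lists that did not form a shared region, and no 2-allele call. Hes1, the classical target, was called in NICD replicate 1 alone of the 4 lists, and in both wild-type lists. Of 43 distal regions around the list 19 were missing (44.2%, against 52.98% over all genes): 3 of 5 at Hes1, 2 of 5 at Notch3 and 0 of 3 at Rbpj.

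Among genes of SWI/SNF, 4 of 29 (13.8%) had a missing region at an end, Smarca4 (the BRG1 ATPase), Dpf2, Pbrm1 and Bcl7a, and each kept another called in all 4 lists. Of 21 distal regions around the list 9 were missing (42.9%, against 52.98% over all genes): 5 of 6 at Bicra, a subunit of a smaller form of the complex, and 0 at Arid1a, Arid1b, Smarca2, Actb and Ss18. Of 22 AP-1 and immediate early genes, 3 (13.6%, against 7.07% of all genes) had a missing region at an end: Batf3 without a 2-allele call, Junb with a call in replicate 1, and Fosb with a call in both. Around the list 18 of 39 distal regions were missing (46.2%), with 3 of 3 at Jun and 2 of 6 at Fos.

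Cell cycle genes had 4 of 39 (10.3%, against 7.07% of all genes) missing at an end. The mitotic genes Aurka, Aurkb, Cdk1 and Foxm1 of the same list were called in all 4 lists. Ccnb1 (cyclin B1) had a −log10 p of 8.92 and 9.51, Cdc20 (an activator of the anaphase-promoting complex) 8.64 and 9.70, Bub1b (a checkpoint kinase) 14.8 and 8.77 and Mybl2 (a factor of the DREAM complex) 13.2 and 6.24. None of the 4 was called in either wild-type or either 1-allele list. Ccne1, named after its values were seen, had a 2-allele region within 1 kb of an end in both replicates and no NICD peak there, although no single merged region held this pattern. Its places were 15352 of 15362 in replicate 1, which is at its very end, and 11551 of 14373 in replicate 2. Of 14 distal regions around cell cycle genes, 1 was missing (7.14%, against 52.98% over all genes) and 8 were called in all 4 lists. At a listed transcription start, Cdkn1a and Ccnd3 were called in all 4 lists, while Cdkn1a had no call at its ends. Regions counted as distal here can thus lie at a start.

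In the remaining lists the counts were low, with no share above 8.00%, against 7.07% of all genes. The p53 pathway had 2 of 29 (Trp53i11 and Ccng1), apoptosis 2 of 25 (Diablo and Casp9), oncogenes and tumour suppressors 1 of 38 (Smad3), housekeeping genes 2 of 30 (Tubb5 and Gapdh) and fibroblast and muscle genes 1 of 18 (Acta2). Trp53i11 had a −log10 p of 19.2 and 15.9, and Diablo, a mitochondrial promoter of apoptosis, 21.6 and 11.8. Blood cell, endothelial and silent genes had none. The NICD lists called few of them: 6 and 2 of 24, 2 and 2 of 15, and 2 and 1 of 22. Tubb5, a gene of general use, and Acta2, of another cell type, were among the missing. Their lists, at 6.67% and 5.56%, did not exceed the share of all genes.

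**Figure D5:**
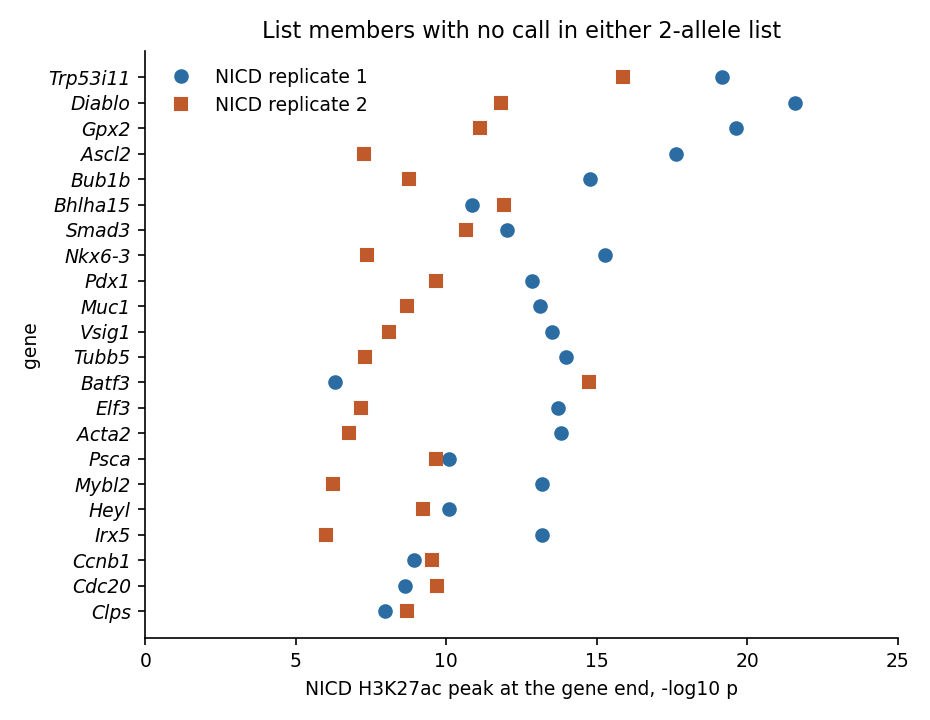
The −log10 p of the NICD H3K27ac peak at the gene end (x axis) in replicate 1 (blue circles) and replicate 2 (orange squares) for the 22 list members with a missing region at an end and no 2-allele call. Values run from 5.999 to 21.6, and 17 of 22 genes are higher in replicate 1, as is the median over all regions in both NICD lists.

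When the 4 lists were cut to the same 14364 entries, NICD by −log10 p and 2-allele by place in the file, the balance between the directions changed. Missing regions numbered 941 of 19214 (4.90%) and opposite regions 586 (3.05%). Of the missing ones 75.5% were distal, and of the opposite ones 49.5%. Of these opposite regions 56.1% were in both full NICD lists, below the cut. Genes called at an end in both NICD and neither 2-allele list numbered 171 (0.791%), and 184 (0.851%) had the reverse; with full lists these counts were 832 (3.85%) and 5 (0.0231%). Of the list members named above, Gpx2, Trp53i11 and Diablo were still called at an end in both NICD and neither 2-allele list, and Cdc25b, a mitotic phosphatase, joined them. Members with the reverse pattern, named after their values were seen, were Casp6, Ccnd3, Ccne2, Cdkn2a, Flt1, Nr4a3, Pgk1, Psenen and Wfdc2, among them the G1 cyclins D3 and E2 and the cell cycle inhibitor Cdkn2a. With full lists 8 of these 9 were called in all 4 lists, so these 8 differ by falling below the cut in NICD. Ccnd3 was called in NICD replicate 1 and both 2-allele lists, and had no NICD replicate 2 peak at an end even in the full list. At its listed transcription start Ccnd3 was called in all 4 full lists, and with equal length it did not hold the reverse pattern there. Near Foxq1, 3 distal regions stayed missing, the most of any gene along with Errfi1 and Trim2.

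Chromosomes were alike in the share missing, from 31.4% on chromosome 2 to 37.1% on chromosome 18. At gene ends X stood higher, at 21.8% against 8.33% to 15.0% on the autosomes.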

How the data were processed

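The series measured H3K27ac and H3K4me3 by ChIP-seq in mouse stomach glands, and 4 H3K27ac libraries (2 NICD, 2 2-allele) were compared, grouped by title and genotype. Per the submitters' processing notes, Bowtie2, MACS2 and GRCm38 (mm10) were used. Per the file headers, the 9 scored lists came from MACS 2.0.10.20131216 with a q-value threshold of 0.05, and each deposited peak has the authors' fold enrichment, summit pileup signal and the −log10 of its p-value and of its q-value. The deposited 2-allele lists hold positions alone; no source used here gives their depth or program. Precision was limited by 2 libraries per group. The labels of the floxed H3K4me3 library disagree on its allele number, so no comparison used it as a genotype.

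Peaks on chromosomes 1 to 19 and X were merged at 1 bp of overlap. Gene ends came from the RefSeq GRCm38.p6 table (21631 protein-coding genes, window 1 kb), and starts and promoter sequences from the RefSeq promoter table. Scores ranked or filtered peaks within a list only. Differences at equal rank are means over 10 rank classes weighted by the distal regions in each. Per-library values were tested by two-sided exact permutation, Benjamini-Hochberg adjusted over 6 tests. Named regions are the 10 of highest NICD rank at gene ends and among distal regions, the 10 opposite regions highest in the 2-allele files, the 10 genes with the most missing and the most retained distal regions, and every list member with a separating region at an end, of which 1 is not reported here. The comparison and the gene lists were chosen with earlier results of these data known. Merging and counting were tested on simulated lists. Python 3.11.15, pandas 2.3.3 and scipy 1.17.1 were used.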

Additional observations from a re-analysis of the deposited data

How the results depend on the processing

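Missing regions stayed mostly distal, and the distal difference at equal rank stayed negative, under every alternative run, while the counts moved widely. With NICD peaks of −log10 q of at least 5, 3359 regions were missing (77.9% distal) at ends of 844 genes, 79 were opposite, the 2-allele lists called 71.1% of NICD regions, and the difference at equal rank was −21.1 points. With 4 lists of equal length the values were 941 (75.5% distal), 262 genes, 586, 85.7% and −18.6 points. Merging peaks up to 500 bp apart gave 84.7% distal, 982 genes and 61.1% called. A window of 2.5 kb gave 74.4% distal and −18.7 points. Alternatives chosen after seeing the data were listed transcription starts (83.4% distal, −18.7 points), leaving out regions in all 9 scored lists (54.8% called) and asking, on regions merged from one group, that 0.5 of the length of the shorter be shared, which gave 7234 missing and 53 opposite regions. Asking a peak to cover that share of the shorter of itself and its merged region changes nothing by construction, since each peak lies whole inside its merged region. The cause of the other changes was not tested.

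Leaving out 1 library at a time gave 8492 to 25036 missing regions (74.3% to 84.3% distal), 56 to 433 opposite regions, 2009 to 3774 genes, 32.7% to 60.1% called and −24.5 to −12.3 points. The 25036, 3774, 32.7% and −12.3 came without NICD replicate 2, and without NICD replicate 1 there were 433 opposite regions. Without 2-allele replicate 1 or 2 the opposite regions numbered 304 and 368, and without replicate 1 the genes 2562. With the replicate block, peaks per library differed by −18543 between 2-allele and NICD, as without it, with an exact sign-flip p of 0.5, the smallest that 2 pairs allow. The labels do not say that a shared number pairs libraries, and the lists hold no common measure to check it.

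Depth limits these counts: NICD replicate 2 had 7.96 M tags, the depth of the 2-allele lists is unknown, and a region not called is not shown to lack the mark.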
